A study of Setaria viridis with 26 samples.

Results

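*SvMads37.1* (Sevir.6G230800), *SvMads37.2* (Sevir.6G230900) and *SvMads37.3* (Sevir.6G231000) are 3 neighbouring loci of *Setaria viridis* (green foxtail) that share the rice gene *OsMADS37* as best hit. They were found by these locus identifiers in the wild-type gene co-expression network (GCN) of developing inflorescences, and all 3 were among its 25298 genes. The series holds 24 RNA-seq samples of hand-dissected inflorescence primordia of cultivar A10.1, pooled over seedlings, with 4 replicates per genotype and stage. Wild-type primordia were taken at 8 to 9, 10 to 11 and 17 days after sowing (DAS), and primordia of the *ful2* mutant, which lacks function of the MADS-box gene *SvFul2*, at 9 to 10, 15 and 21 DAS. The series also has 2 genomic DNA samples of *ful2*. The network rests on 33 wild-type samples, 10 from this series and 23 from an earlier study of the same tissue, so that no *ful2* sample entered any value given here.

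MADS-box genes encode transcription factors that bind DNA as dimers or larger complexes, and plants use them to time flowering and to set the identity of meristems and floral organs. In Arabidopsis, FLOWERING LOCUS C delays flowering until a cold winter has passed, whereas SOC1-type and APETALA1/FRUITFUL-type members promote the floral transition. In grasses, related genes act on the switch from a vegetative shoot to an inflorescence and on how many branches and spikelets its meristems form.

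The annotation did not place the 3 copies on equal footing. In the deposited gene ontology (GO) table, *SvMads37.1* carried 15 terms, of which 3 came from a match to a known sequence domain, the MADS domain in Pfam and CDD. *SvMads37.2* carried 9 terms, 1 of them from a domain match in SUPERFAMILY. *SvMads37.3* carried 10 terms and none came from a domain match, so that its place in the family rests on its rice best hit. The study's annotation of gene models also lists a MADS domain and an Arabidopsis AGAMOUS-LIKE best hit for the first and second copy and neither for the third. All 3 copies shared 4 terms, which were nucleus, transcription, binding to RNA polymerase II regulatory regions and protein dimerization activity. Only *SvMads37.1* carried vernalization response, maintenance of inflorescence meristem identity and timing of the transition from vegetative to reproductive phase. The term flower development was assigned to *SvMads37.3* alone of the 3. Related terms were positive regulation of flower development for *SvMads37.1* and reproductive structure development for *SvMads37.2*. Because the copies are neighbours with one rice best hit, reads of 1 copy could have been counted for another, and how far this occurred was not tested.

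All 3 copies were assigned to the turquoise module, the group of co-expressed genes that held 3909 genes or 15.5% of the network. An edge of the network joins 2 genes, and its weight is the topological overlap, a score between 0 and 1 that grows with the correlation of the pair and with the number of strong neighbours they have in common. Listed weights ran from 0.02 to 0.393 with a median of 0.0412, and 13.6% of all gene pairs were listed. For an unlisted pair it is known only that the weight was under about 0.02. Each weight is 1 value over all network samples and has no replicate error, so that differences between weights below are descriptions and no test was possible.

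The copies differed in how many genes they were linked to and how strongly. *SvMads37.1* had 4676 edges, 18.5% of the other network genes, a median of 0.0380 and 0.165 at most. *SvMads37.2* had 7984 edges (31.6%), with a median of 0.0591 and a highest weight of 0.219. *SvMads37.3* had 8786 edges (34.7%), with a median of 0.0816 and a highest weight of 0.291. The order was the same for number, median and highest weight, although the ranges overlapped from the lowest listed weight upwards. *SvMads37.1* stood at the median of turquoise genes, which was also 4676 edges, and above the network median of 3069, whereas *SvMads37.3* ranked 131 among all network genes. Edges of at least 0.1 numbered 183 for *SvMads37.1*, 1300 for *SvMads37.2* and 3531 for *SvMads37.3*, and edges of at least 0.2 numbered 0, 8 and 493.

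**Figure D1:**
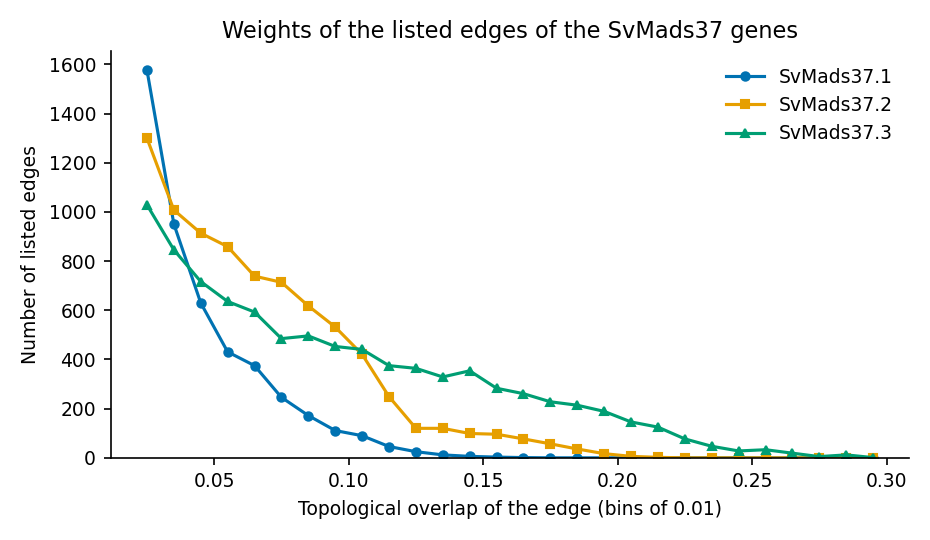
Number of listed edges (vertical axis) in bins of 0.01 of topological overlap (horizontal axis, a score without unit) for each SvMads37 gene, 1 line per gene. The line of SvMads37.1 falls away below 0.165, its highest weight, and that of SvMads37.3 extends to 0.291.

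Connectivity inside the module, the sum of weights to other turquoise genes, gave the same order. It was 133.6 for *SvMads37.1*, which ranked 2631 of 3909 and fell below the module median of 194.6. It was 331.4 for *SvMads37.2* (rank 1057) and 442.2 for *SvMads37.3* (rank 585). None of the copies was near the top of the module, where the highest sum was 738.6. *SvMads37.2* was linked to 99.1% of the genes of turquoise and *SvMads37.3* to 97.8%, against 68.1% for *SvMads37.1*. By the number of turquoise partners alone, *SvMads37.2* (rank 502) therefore stood above *SvMads37.3* (rank 925).

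Each pair of copies was joined by a listed edge. The weight was 0.119 between *SvMads37.1* and *SvMads37.2*, 0.125 between *SvMads37.2* and *SvMads37.3*, and 0.0680 between *SvMads37.1* and *SvMads37.3*. The middle copy was thus linked more strongly to each flanking copy than these were to each other. For *SvMads37.1*, the edge to *SvMads37.2* was among its strongest, at rank 49 of 4676. The edge to *SvMads37.3* lay above 83.2% of the edges of *SvMads37.1* but only above 42.1% of those of *SvMads37.3*. Against all edges within turquoise, with a median of 0.0682, the pair of flanking copies lay near the middle, and the other pairs lay above 76.1% and 77.9% of these edges.

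The partner lists were largely nested. Together the copies had 9865 partners, of which 4104 (41.6%) were linked to all 3. *SvMads37.1* and *SvMads37.2* shared 4613 partners, which was 98.7% of the list of *SvMads37.1* and 57.8% of that of *SvMads37.2*. *SvMads37.2* and *SvMads37.3* shared 6965, or 87.2% and 79.3% of their lists, and *SvMads37.1* and *SvMads37.3* shared 4107, or 87.8% and 46.7%. Beside these shares, *SvMads37.2* was linked to 31.6% of all genes and 99.1% of turquoise genes, and *SvMads37.3* to 34.7% and 97.8%. Only 60 genes were partners of *SvMads37.1* alone, compared with 510 of *SvMads37.2* alone and 1818 of *SvMads37.3* alone. A smaller part was shared among the strongest partners than over the whole lists. The 100 heaviest partners of *SvMads37.2* shared 30 genes with those of *SvMads37.1* and 31 with those of *SvMads37.3*, whereas the latter 2 lists shared 0. Lists of 100 are a small part of the 25298 network genes, and the overlap of unrelated lists of this size was not computed.

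Outside turquoise, the copies differed in the modules they were linked to. Cyan, the module of *SvFul1*, *SvMads34* and *SvMads56*, was reached alike by all copies, with 76.2%, 82.8% and 76.8% of its 621 genes linked to *SvMads37.1*, *SvMads37.2* and *SvMads37.3*. Yellow separated them, with 13.4%, 60.6% and 95.7% of 2001 genes. Beside these stand the 18.5%, 31.6% and 34.7% of all genes linked to the copies. Greenyellow gave 2, 47 and 514 of 812 genes (0.246%, 5.79% and 63.3%), above this background for *SvMads37.3* alone. Red gave 31, 191 and 564 of 1689 genes (1.84%, 11.3% and 33.4%), below the background of each copy. The reverse order of the flanking copies was seen for tan, the module of *SvKn1* and *SvRa2*, with 176, 168 and 43 of 798 genes. These shares (22.1%, 21.1% and 5.39%) were slightly above background for *SvMads37.1* and below it for the others. Brown, the module of *SvFul2* and *SvFul3*, had 639, 1084 and 438 of 2411 genes (26.5%, 45.0% and 18.2%) and so most partners of the middle copy. Magenta, with 1260 genes including *SvFul4* and *SvMads51*, held 0 partners of any copy.

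**Figure D2:**
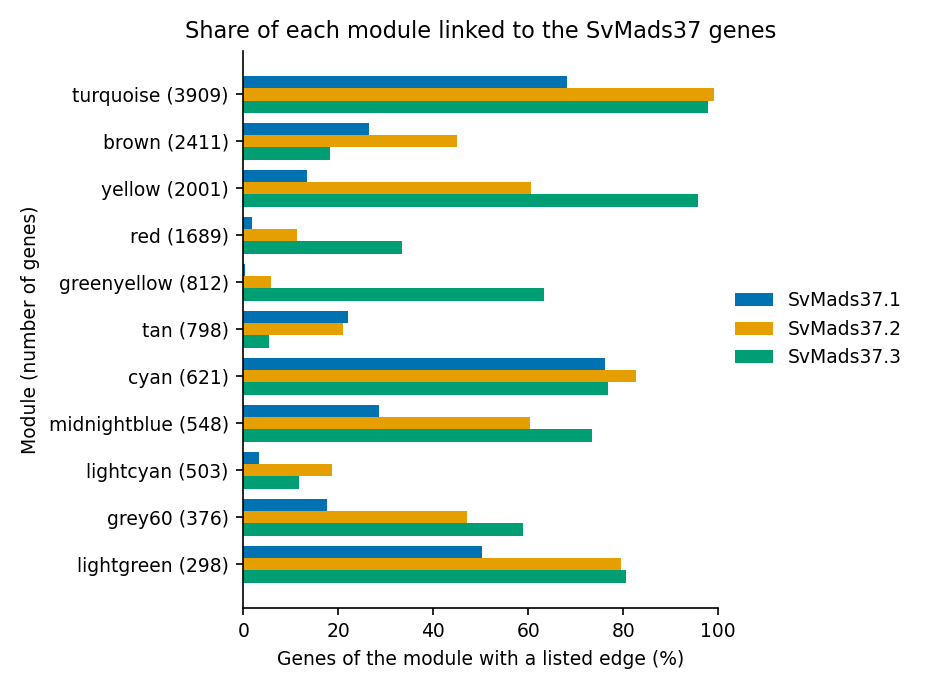
Percentage of the genes of each module with a listed edge to SvMads37.1, SvMads37.2 or SvMads37.3 (horizontal axis, bars starting at 0), for modules of which at least 10% was linked to 1 of the copies, with the number of genes of each module in brackets. Cyan is reached by all 3 to a like extent (76.2% to 82.8%), whereas yellow ranges from 13.4% to 95.7%.

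The same modules held most of the partners found in 1 list only. Of the 60 partners of *SvMads37.1* alone, 36 were in tan, and of the 510 of *SvMads37.2* alone, 361 were in brown. The 1818 partners of *SvMads37.3* alone were mainly in yellow (702), greenyellow (469) and red (373). Red as a whole was linked to *SvMads37.3* at 33.4%, just below the 34.7% of all genes. Among the 4107 genes linked to both flanking copies, 632 (15.4%) had the heavier edge to *SvMads37.1*, although this copy had the lower weights in general. They included 215 of 409 such genes in cyan, 158 of 337 in brown and 25 of 37 in tan, but 0 of 268 in yellow and 194 of 2627 (7.38%) in turquoise. Among the 100 heaviest partners of *SvMads37.1*, 76 were in turquoise and 17 in cyan, whereas *SvMads37.2* had 99 in turquoise and *SvMads37.3* had 95 in turquoise and 5 in yellow.

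Among MADS-box genes that the study names, the copies were linked to the same 5 of 8, beside the 18.5%, 31.6% and 34.7% of all genes linked to *SvMads37.1*, *SvMads37.2* and *SvMads37.3*. *SvMads34*, whose rice ortholog acts on panicle meristem identity, had weights of 0.108, 0.0995 and 0.0428 with the 3 copies in this order. *SvMads56*, related to the flowering promoter SOC1 of Arabidopsis, had weights of 0.0862, 0.0895 and 0.0551. Both genes stood high among the edges of *SvMads37.1*, above 97.7% and 92.5% of them, and low among those of *SvMads37.3*, above 24.0% and 33.1%. *SvMads5*, of the SEPALLATA type that in other plants joins MADS complexes in floral organs, had weights of 0.0374, 0.0775 and 0.0558. *SvMads5* was thus linked most strongly to the middle copy.

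Of the 4 AP1/FUL-like genes, *SvFul3* and *SvFul1* were partners of all copies. The weights of *SvFul3*, whose wheat relatives promote flowering, were 0.0381, 0.0627 and 0.0386. Those of *SvFul1*, related to wheat *VERNALIZATION 1*, were 0.0314, 0.0351 and 0.0225. The edges to *SvFul1* were weak, and the one to *SvMads37.3* was heavier than only 3.22% of its edges. *SvFul2* and *SvFul4* had no listed edge to any copy. In a separate network of predicted targets (GENIE3), the paper predicts *SvFul2* as a direct target of the *SvMads37.1* protein. That prediction is another measure than topological overlap and was not examined here. *SvFul2* shared 252, 260 and 47 of its 1961 partners with *SvMads37.1*, *SvMads37.2* and *SvMads37.3*. These shares (12.9%, 13.3% and 2.40%) lay below the 18.5%, 31.6% and 34.7% of all genes linked to the copies. *SvMads51*, ortholog of a maize flowering time regulator, had no edge to any copy and shared 0 of its 4028 partners with each of them.

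Of 5 other flowering genes, 2 (40%, beside 18.5%, 31.6% and 34.7% of all genes) were linked to each copy. Both were of the phosphatidylethanolamine-binding protein family to which florigen belongs, as is *SvZcn2*, which was not linked. Both were also in turquoise, of which 68.1%, 99.1% and 97.8% of genes were linked to *SvMads37.1*, *SvMads37.2* and *SvMads37.3*. *SvMtf1*, in turquoise and named for the rice gene MOTHER OF FT AND TFL1, had weights of 0.0829, 0.109 and 0.0705 with the 3 copies. *SvFtl1*, the ortholog of a rice florigen gene and also in turquoise, had weights of 0.0387, 0.0851 and 0.0591. The edge to *SvMtf1* lay above 91.4% of the edges of *SvMads37.1* and 88.6% of those of *SvMads37.2*, but above only 43.8% of those of *SvMads37.3*. *SvFd1*, the ortholog of the florigen partner OsFD1 of rice, and *SvZcn2*, a TFL1-like gene, were in blue and pink and had no listed edge to any copy.

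Genes of meristem determinacy and of organ polarity were linked to few copies. *SvKn1*, related to the maize meristem gene *knotted1*, had weights of 0.0290 and 0.0210 with *SvMads37.1* and *SvMads37.2* and no listed edge to *SvMads37.3*. *SvFea4*, related to a maize gene that restricts meristem size, was a partner of *SvMads37.1* alone at 0.0224. The *PHABULOSA* homolog Sevir.9G157300, of a family that sets the upper side of leaves in Arabidopsis, was a partner of *SvMads37.3* alone at 0.0368. *SvIds1*, *SvSid1*, *SvRa2*, *SvD3*, *SvYab15* and the homologs of *milkweed pod1* and *Rice outermost cell-specific gene5* had no listed edge to any copy. Over the 4 lists, 9, 8 and 8 of 23 genes (39.1%, 34.8% and 34.8%) were partners, beside 18.5%, 31.6% and 34.7% of all genes, so that the shares of *SvMads37.2* and *SvMads37.3* were near background. All copies had 7 of these genes in common, and 13 had an edge to none. Counting only weights of at least 0.0400, which 8.49%, 22.4% and 27.3% of all genes reached with the 3 copies, these numbers were 3, 6 and 5.

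A wider view came from all loci with a MADS domain match in the GO table, a list chosen after the files were seen. Of 62 such loci, 36 were in the network, and with *SvMads37.3* 37 loci were compared. MADS genes without a match in the table are otherwise not counted, among them *SvFul4*, which had no edge to any copy. *SvMads37.1* had edges to 15 of the other 34 (44.1%, beside 18.5% of all genes), *SvMads37.2* to 18 (52.9%, beside 31.6%) and *SvMads37.3* to 21 (61.8%, beside 34.7%). The set was again nested, since the 15 partners of *SvMads37.1* were linked to all copies and 13 of the 34 were linked to none. Of the 14 loci in turquoise or cyan, 13 were linked to all copies, beside 67.0% of the 4530 genes of these modules. Among all 666 pairs of these loci, 168 (25.2%) were listed with a median of 0.0562. The pairs of copies ranked 17 (*SvMads37.2* and *SvMads37.3*), 22 (*SvMads37.1* and *SvMads37.2*) and 70 (*SvMads37.1* and *SvMads37.3*) among them, so that the neighbours were not each other's strongest MADS partners.

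The strongest MADS partner differed by copy. For *SvMads37.1* and *SvMads37.2*, the turquoise locus Sevir.9G565033 had weights of 0.129 and 0.133, above 99.5% and 94.0% of their edges, and 0.0716 for *SvMads37.3*. Sevir.5G034800 was slightly heavier for *SvMads37.2* at 0.137, and its weights were 0.102 with *SvMads37.1* and 0.122 with *SvMads37.3*. For *SvMads37.3*, Sevir.5G141300 was the strongest at 0.143, above 78.2% of its edges, but its weight with *SvMads37.1* was only 0.0250, above 18.8%. The 3 loci were chosen after their values were seen.

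**Figure D3:**
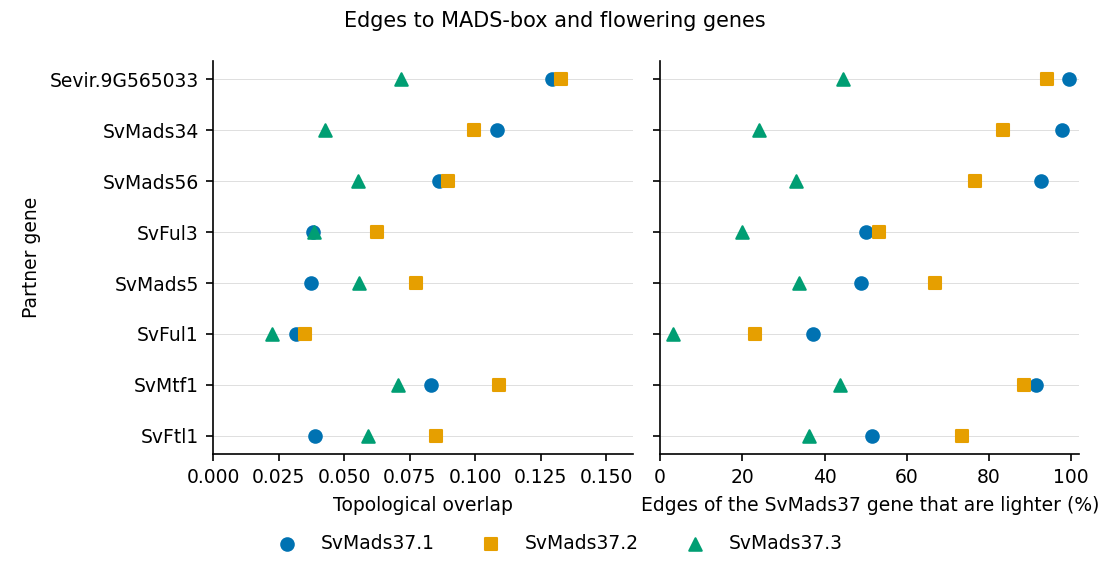
Topological overlap (left, score without unit) and percentage of the edges of the SvMads37 gene that are lighter (right) for 8 partner genes, with 1 symbol per SvMads37 gene. On the right axis SvMads37.3 lies lowest for every gene shown, from 3.22% for SvFul1 to 44.4% for Sevir.9G565033, while SvMads34 lies above 97.7% of the edges of SvMads37.1. Of all 15 MADS loci linked to the 3 copies, 11 had SvMads37.3 lowest on this measure and 4, not shown, had another copy lowest.

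The heaviest partners of each copy were mostly genes without a name in the sources used here. For *SvMads37.1* they were led by Sevir.4G285500 (0.165), Sevir.8G255700 (0.156) and Sevir.8G255750 (0.156, in cyan), none with a domain match. Its 10 heaviest partners included the homeobox loci Sevir.9G508000 (0.148) and Sevir.9G138100 (0.145) and the C2H2 zinc finger locus Sevir.2G209800 (0.142). These are domain classes of DNA-binding proteins. For *SvMads37.2* the heaviest was Sevir.8G174100 (0.219), with a GTPase domain and annotated to vernalization response. It was also the fifth for *SvMads37.1* (0.149) but ranked 791 for *SvMads37.3* (0.184). The next was Sevir.6G171900 (0.211), with a helix-loop-helix domain as in bHLH transcription factors.

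*SvMads37.3* had another set. It was led by Sevir.6G138851 (0.291), Sevir.2G396200 (0.290) and Sevir.8G249950 (0.289). Sevir.2G396200 is annotated as a small nuclear ribonucleoprotein G, a protein of the RNA splicing machinery. Weights of these genes with *SvMads37.1* were 0.0790, 0.0861 and 0.0727. Of its 10 heaviest partners, 8 had no domain match or best hit behind any GO term. GO terms for DNA-binding transcription factor activity were assigned to 8 of the 100 heaviest partners of *SvMads37.1*, and to 1 each of those of *SvMads37.2* and *SvMads37.3*, beside 3.74% of network genes.

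Genes with the most similar partner lists, by an index that also depends on list size, were not the other copies. The measure was the number of shared partners divided by the number of genes that were partners of either (the Jaccard index), over all network genes. Between copies it was 0.573 (*SvMads37.1* and *SvMads37.2*), 0.439 (*SvMads37.1* and *SvMads37.3*) and 0.710 (*SvMads37.2* and *SvMads37.3*). It reached 0.864 for *SvMads37.1* with Sevir.3G031301, 0.946 for *SvMads37.2* with Sevir.6G074300 and 0.965 for *SvMads37.3* with Sevir.1G145033. These 3 genes had 4804, 8132 and 8548 edges, near the 4676, 7984 and 8786 of the copies they resembled. By this measure *SvMads37.2* ranked 924 among the genes most like *SvMads37.1*, and the other ranks between copies ran from 1467 to 4011. Lists of unequal length cannot reach a high index even when nested. *SvMads37.2* held 98.7% of the list of *SvMads37.1*, so that these ranks do not show unlike partners. Cyan genes were among the 5 most alike to *SvMads37.1* (Sevir.1G354500 at 0.839 and Sevir.6G004900 at 0.826), whereas those of *SvMads37.2* were all turquoise and those of *SvMads37.3* included the yellow gene Sevir.2G064700 (0.958).

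For several terms of flowering, the share of genes linked to each copy lay below that of all genes. Vegetative to reproductive phase transition of meristem was assigned to 480 network genes, of which 10.8%, 17.5% and 17.7% were linked to *SvMads37.1*, *SvMads37.2* and *SvMads37.3*, beside 18.5%, 31.6% and 34.7% of all genes. Regulation of flower development, with 344 genes, gave 12.2%, 17.7% and 17.2%. Shares below background were not particular to flowering. Response to cold gave 13.6%, 21.7% and 25.7%, and photosynthesis 11.5%, 18.0% and 29.5%. Turquoise genes had a median of 9 GO terms, beside 11 in the network, and the part of this in the shares was not tested. Meristem initiation, with 166 genes, lay above background for *SvMads37.1* at 22.3% and near it for *SvMads37.2* at 32.5%. It lay below background for *SvMads37.3* at 27.7%. Photoperiodism, with 12 genes, gave 25% for each copy, above the background of *SvMads37.1* alone. Over 27 terms, 10, 2 and 1 were above background, where any excess was counted, however small. For *SvMads37.1* they included response to water deprivation, at 18.53% beside 18.48%. For *SvMads37.3* the 1 term was protein dimerization activity, at 36.4% beside 34.7%.

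Terms that *SvMads37.1* itself carries were looked at more closely after the files were seen. The timing of the transition from vegetative to reproductive phase, with 36 other genes, gave 19.4%, 22.2% and 19.4% for *SvMads37.1*, *SvMads37.2* and *SvMads37.3*. This is close to the 18.5% of all genes for the first copy and below the 31.6% and 34.7% for the others. Of 93 other network genes with vernalization response, 12, 14 and 18 were linked to *SvMads37.1*, *SvMads37.2* and *SvMads37.3* (12.9%, 15.1% and 19.4%), below the background of each copy. After Sevir.8G174100, the heaviest of these for *SvMads37.1* and *SvMads37.2* was Sevir.9G433200, with weights of 0.104 and 0.119, and its weight was 0.111 for *SvMads37.3*. It is a reciprocal best hit of the Arabidopsis histone methyltransferase gene *SWINGER*. Sevir.9G008900, a reciprocal best hit of *FRIGIDA*, which activates *FLOWERING LOCUS C* in Arabidopsis, was a partner of *SvMads37.1* alone at 0.0240. Maintenance of inflorescence meristem identity was assigned to 25 other genes, of which 5 (20%) were linked to *SvMads37.1*, close to its background, and 4 each (16%) to *SvMads37.2* and *SvMads37.3*, below theirs. The partners of *SvMads37.1* were *SvMads56*, Sevir.9G565200, *SvFul3*, *SvFul1* and Sevir.3G225700, in falling order of weight from 0.0862 to 0.0229.

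The 3 copies were consecutive in locus order, and several loci beside them were linked to them. Of the 10 network loci within 5 places on either side, 6 were in turquoise, which holds 15.5% of the network. Of these 10, 5, 7 and 7 had edges to *SvMads37.1*, *SvMads37.2* and *SvMads37.3*. Beside this stand 18.5%, 31.6% and 34.7% of all genes, and 68.1%, 99.1% and 97.8% of turquoise genes. Within 10 places, 6, 10 and 9 of 20 loci had edges to the copies, and 7 were in turquoise. The added turquoise locus, Sevir.6G231766 at place 7, had the heaviest edge of the 20 to *SvMads37.3* (0.213). The 3 loci before *SvMads37.1* and the 2 after *SvMads37.3* were all turquoise, so that the copies lay in a run of 8 consecutive network loci of 1 module, from Sevir.6G230566 to Sevir.6G231200. Within the run 23 of 28 pairs were listed, at weights between 0.0206 and 0.202 (median 0.0957). Edges within turquoise had a median of 0.0682 and are common, as the shares of turquoise genes above show. The run was picked by its shared module, so that the number of edges within it says little by itself. The heaviest edge within the run joined *SvMads37.3* and Sevir.6G230566, and the edges to Sevir.6G230632 were 0.0748, 0.134 and 0.140 for the 3 copies. Of the 5 loci of the run beside the copies, only Sevir.6G231200 had a best hit in the GO table, and none had a MADS domain match.

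This run was the longest of 22808 runs in the network, and the only one of 8 or more loci. There were 2 runs of 7, 2 of 6 and 9 of 5, and 9.85% of all neighbouring network loci were in 1 module. The run was noticed in the data, and no test of its length was made. One locus of the GO table that lies in it, Sevir.6G230750, was not a network gene. The next MADS locus was Sevir.6G230500, 4 places before *SvMads37.1*. It was in yellow and had a listed edge to *SvMads37.3* alone (0.0357). Sevir.6G230400, best hit of an Arabidopsis SPL gene, a family that promotes the floral transition there, was in turquoise with weights of 0.0601, 0.0978 and 0.0512. Elsewhere only 2 pairs of MADS loci lay within 5 places of each other. *SvMads34* and *SvFul1* were both in cyan with a weight of 0.0549, and Sevir.7G117600 and Sevir.7G117800 were in different modules with no listed edge.

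**Figure D4:**
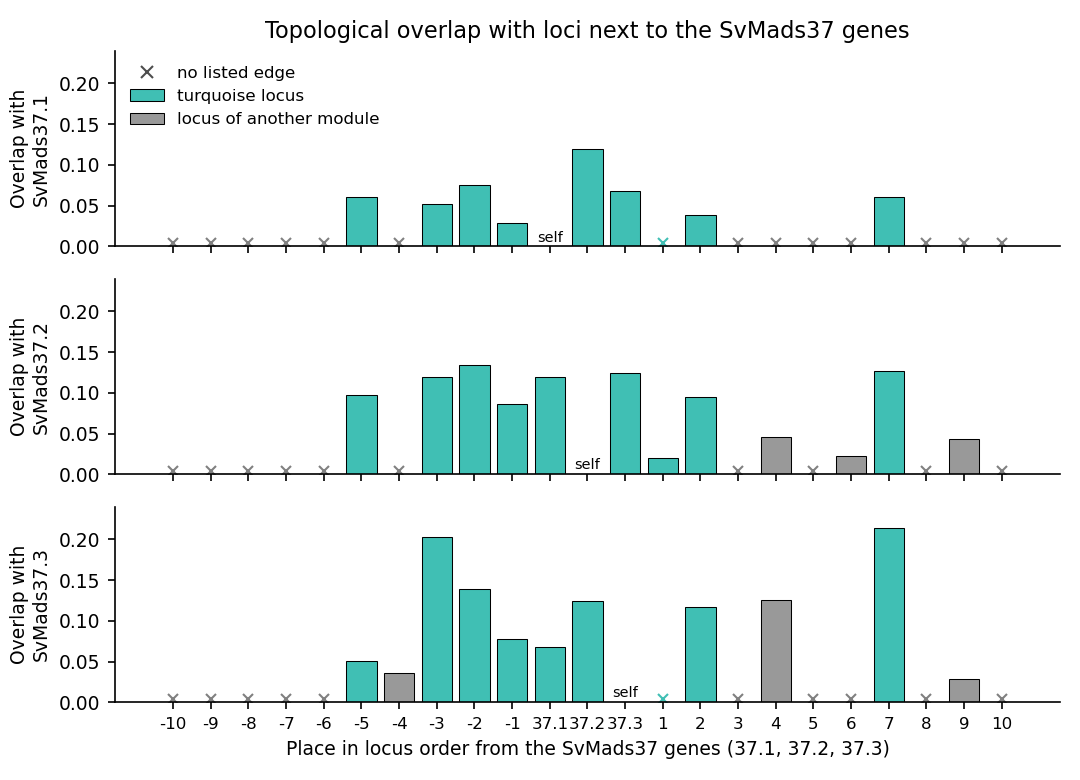
Topological overlap (vertical axis, score without unit) of each SvMads37 gene with the 10 network loci on either side and with the other copies, by place in locus order; crosses mark pairs with no listed edge. Bars from place -3 to place 2 belong to the run of 8 turquoise loci, and the highest bar within it is 0.202, between SvMads37.3 and Sevir.6G230566, while the bar at place 7 outside it reaches 0.213.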

How the data were processed

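The deposited tables were the edges of the wild-type network, its genes with their modules, and a GO annotation made with GOMAP. They held 0 columns of single samples, so that expression by stage or genotype, differential expression and sequencing depth were not analysed here. Per the methods, the authors mapped trimmed reads to primary transcripts (version 2.1) with Salmon 0.13.0, removed genes with a row sum of 10 or fewer counts and 2 wild-type samples, stabilized the variance of the counts (vst), and made a signed network with WGCNA (biweight midcorrelation, power 16). The weight deposited by the authors is a score, the topological overlap, listed from about 0.02 upwards. A signed network lists genes that vary in the same direction, and the minimum hides weak links. The module colour is the authors' label, and other GO columns are text. The deposited network held 25298 genes in 26 modules, fewer of both than the paper reports. All shares given here are over these deposited genes.

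Edges, weight sums within and over modules, shared partners and module shares were counted for all 25298 genes in Python 3.11.15 with numpy 2.4.6, scipy 1.17.1, pyarrow 21.0.0 and matplotlib 3.10.9, and the counting was checked against a direct count on simulated networks. Named genes were the 3 copies, 4 lists of genes named in the study, leading genes among the 10 heaviest partners and the 5 of highest Jaccard index, and loci within 5 places. The copies, lists and 27 GO terms were chosen with earlier results of these data known. The MADS-domain list, the runs of loci and the closer look at single GO terms were added after the files were seen. In the GO table, the 678 assignments marked NOT were left out, terms were used as assigned, and locus order came from locus numbers without coordinates. Alternatives were other measures of connectivity, the 100 heaviest partners, weights of at least 2 times the lowest (0.0400), and loci within 10 places.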

Additional observations from a re-analysis of the deposited data

How the results depend on the processing

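Of 28 alternative values, 12 stayed within a limit and 16 moved past it. The limit was the exact 95% binomial interval for shares of partners or loci, which is wide for 10 loci and narrow for whole partner lists, and 1.5 times for ranks and counts. This interval treats partners as independent, which co-expressed genes are not, so that the 2 counts also follow list size. A shift from 98.7% to 99.2% of shared partners counted as moved, and one from 60% to 35% of neighbouring loci did not. Leaving out single samples was not possible, since the tables hold network weights over all samples. No paired analysis was possible because no column holds 1 sample. Counting turquoise edges instead of summing weights moved *SvMads37.2* to rank 502 and *SvMads37.3* to rank 925, which changed their order, and summing over all modules moved *SvMads37.3* to rank 315. With the 100 heaviest partners, the share in turquoise was 76%, 99% and 95% for *SvMads37.1*, *SvMads37.2* and *SvMads37.3*, and with weights of at least 0.0400 it was 67.7%, 61.5% and 50.3%, in place of 57.0%, 48.5% and 43.5%. At that minimum *SvMads37.1* shared 99.2% of its partners with *SvMads37.2*, *SvMads37.2* shared 85.5% with *SvMads37.3*, and 3 and 5 of the listed genes were linked to *SvMads37.1* and *SvMads37.3*. GO terms above background numbered 6 and 4 for *SvMads37.2* and *SvMads37.3* with the 100 heaviest partners, and 4 for *SvMads37.2* at the minimum of 0.0400. Among the 100 heaviest, 1 gene could put a term above background, as for negative regulation of flower development with both copies. The cause of these shifts was not tested, beyond the fewer edges that each stricter choice keeps. Unlisted weights are unknown, so that sums understate genes with many weak edges.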

Other observations

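Sequence-based annotation was less common among turquoise genes and the strongest partners of *SvMads37.2* and *SvMads37.3* than in the network as a whole. The strongest partners of *SvMads37.1* lay nearer to the network. A domain match or best hit stood behind at least 1 GO term for 64.3% of network genes, 44.1% of turquoise genes and 67.9% of genes outside turquoise. Of the 100 heaviest partners it was 57% for *SvMads37.1*, 37% for *SvMads37.2* and 40% for *SvMads37.3*. Locus numbers that do not end in 00 made up 12.8% of the network, 26.3% of turquoise, and 11%, 25% and 30% of these heaviest partners. Both measures were chosen after the files were seen, no test was made, and their part in the partner lists was not tested.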
